A study of Homo sapiens with 6 samples.

Results

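The enzymes of ketone body synthesis and use were examined in heart muscle cells grown from WTC11, a widely used human iPSC line. They were BDH1, BDH2, OXCT1, ACAT1 and AACS, taken by gene symbol from the count files, and all 5 were among the 38557 gene rows and among the 16107 genes with enough counts to test. The study kept the cells in one of 2 backbone media, RPMI plus B27 (B27 is a serum-free supplement) or DMEM plus fatty acids, with 3 biological replicates in each and 6 RNA sequencing libraries in all. All libraries came from wild-type cells of the same line, and the labels give neither the make-up of the media nor the time spent in them. What separates the biological replicates is not stated either, so p-values measure the spread between these samples. The question asked of these genes was whether their transcripts differ with the backbone medium.

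Ketone bodies are made mainly in liver mitochondria and burned in heart, muscle and brain. In the tissues that burn them, BDH1 oxidises beta-hydroxybutyrate to acetoacetate, OXCT1 (SCOT) moves coenzyme A from succinyl-CoA onto acetoacetate, and the thiolase ACAT1 splits the resulting acetoacetyl-CoA into acetyl-CoA for the citrate cycle. AACS, in the cytosol, activates acetoacetate for lipid and sterol synthesis, and BDH2 is a cytosolic dehydrogenase related to BDH1. Liver cells lack OXCT1.

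BDH1 rose 1.75-fold in DMEM plus fatty acids and was the member called, 1 of 5, where 1.36% of all tested genes were called (0.292% higher and 1.07% lower) at an adjusted p under 0.05 (edgeR quasi-likelihood test, Benjamini-Hochberg). OXCT1 was 1.55-fold lower in DMEM plus fatty acids without passing (adjusted p 0.0742, edgeR). The sample titles number the replicates and state no pairing across media. Libraries with the same number deviated together from their medium's mean (r = 0.313, 0.428 and 0.365 across genes). The numbers were therefore taken as pairing the libraries. A fit that took this number as a block called both BDH1 (adjusted p 0.0319, edgeR) and OXCT1 (adjusted p 0.0349, edgeR). It called 1.36% of all tested genes higher and 3.42% lower. ACAT1 lay 1.44-fold higher, AACS 1.17-fold higher and BDH2 1.12-fold lower, and none of these 3 was called in either fit. The median log2 fold change of the 5 genes was 0.23, and that of all tested genes 0.01.

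Gene counts per library ran from 23232324 to 31035389, and a count of 0 allows up to 0.0967 to 0.129 counts per 1e+06 (CPM), counting error only. Cardiomyocyte markers were present in every library, with 12 of 12 tested and a summed level of 36763 to 46630 CPM in RPMI plus B27 and 24888 to 39759 CPM in DMEM plus fatty acids. Of these 8 had lower means in DMEM plus fatty acids, 4 of them without overlap (12.8% of all tested genes), and 0 were called. The replicate block called 2 lower (3.42% of all tested genes), the contractile proteins MYH7 and ACTN2 (log2 fold changes -1.32 and -1.05). The other 4 had higher means, 1 of them without overlap (12.8% of all tested genes). This was MYH6, another contractile protein, with a log2 fold change of 0.86 (edgeR adjusted p 0.166, and 0.0797 with the block). Markers of fibroblasts and stroma had lower means in DMEM plus fatty acids for 12 of 12 genes, 7 of them called (1.07% of all tested genes). Their sums were 5036 to 9256 CPM in RPMI plus B27 against 914 to 2191 CPM. Markers of smooth muscle had lower means for 6 of 6 genes, 4 of them without overlap (12.8% of all tested genes). Their sums were 1596.5 to 2098.8 CPM in RPMI plus B27 against 375 to 1199 CPM. MYH11 and DES overlapped between media, and DES had a log2 fold change of -0.20 ± 0.42 (-0.0034 with the block). The part of these other cells in the results below was not tested. In bulk libraries fewer cells of a type and less RNA per cell cannot be told apart. The numbers of counts behind each member were between 416 (BDH1 in RPMI plus B27 replicate 1) and 6074 (OXCT1 in RPMI plus B27 replicate 3).

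The 250 bases before the annotated starts of BDH1 and OXCT1 are shown because these are the members whose difference was called in at least 1 of the fits. They were taken from RefSeq on GRCh38.p14, where a promoter entry was found for 5 of 5 members. BDH1 lies on the minus strand of chromosome 3 and has 2 listed starts, 17375 bases apart. OXCT1 also has 2, 26768 bases apart, of which the upstream one is shown, and counts per gene do not say which start was used. The first stretch is chr3:197573344-197573593, the other chr3:197555969-197556218, and the OXCT1 stretch, also on the minus strand, is chr5:41870426-41870675. Capitals mark the GC box GGGCGG on either strand.
BDH1 first start: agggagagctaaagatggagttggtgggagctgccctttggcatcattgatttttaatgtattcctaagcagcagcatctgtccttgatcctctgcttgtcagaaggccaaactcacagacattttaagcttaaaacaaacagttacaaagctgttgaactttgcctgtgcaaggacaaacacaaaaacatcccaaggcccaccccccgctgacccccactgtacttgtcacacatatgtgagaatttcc
BDH1 other start: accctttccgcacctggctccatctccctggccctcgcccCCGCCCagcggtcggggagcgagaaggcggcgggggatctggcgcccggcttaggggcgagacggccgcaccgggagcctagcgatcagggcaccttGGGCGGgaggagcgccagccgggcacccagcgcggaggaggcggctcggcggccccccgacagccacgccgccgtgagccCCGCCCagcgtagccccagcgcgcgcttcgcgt
OXCT1: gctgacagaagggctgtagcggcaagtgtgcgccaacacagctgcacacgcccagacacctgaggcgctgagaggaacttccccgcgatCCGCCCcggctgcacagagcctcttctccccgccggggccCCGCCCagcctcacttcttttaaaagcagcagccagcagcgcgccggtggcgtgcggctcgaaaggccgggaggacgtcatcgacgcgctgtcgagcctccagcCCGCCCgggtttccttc

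The BDH1 stretches differ in base composition, with 45.6% G and C before the first start and 77.6% before the other, and OXCT1 has 68.0% (34.8% before its other start, which holds none of the motifs below). The GC box was found 3 times before the other BDH1 start, 3 times before OXCT1 and 0 times before the first BDH1 start, and 42.6% of all 35116 RefSeq promoter stretches of this length hold it. Searched on both strands, none of the 3 stretches holds the DR1 element read by PPARs (AGGTCANAGGTCA, in 0.0171% of all stretches), the element of the oestrogen-related receptors (TCAAGGTCA, in 0.319%) or their shared half-site AGGTCA (in 12.1%, and part of both). They likewise lack the core of the hypoxia element (ACGTG, in 18.5%) and the E-box CACGTG, which contains that core (in 6.34%). These matches describe letters in these windows only.

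**Figure D1:**
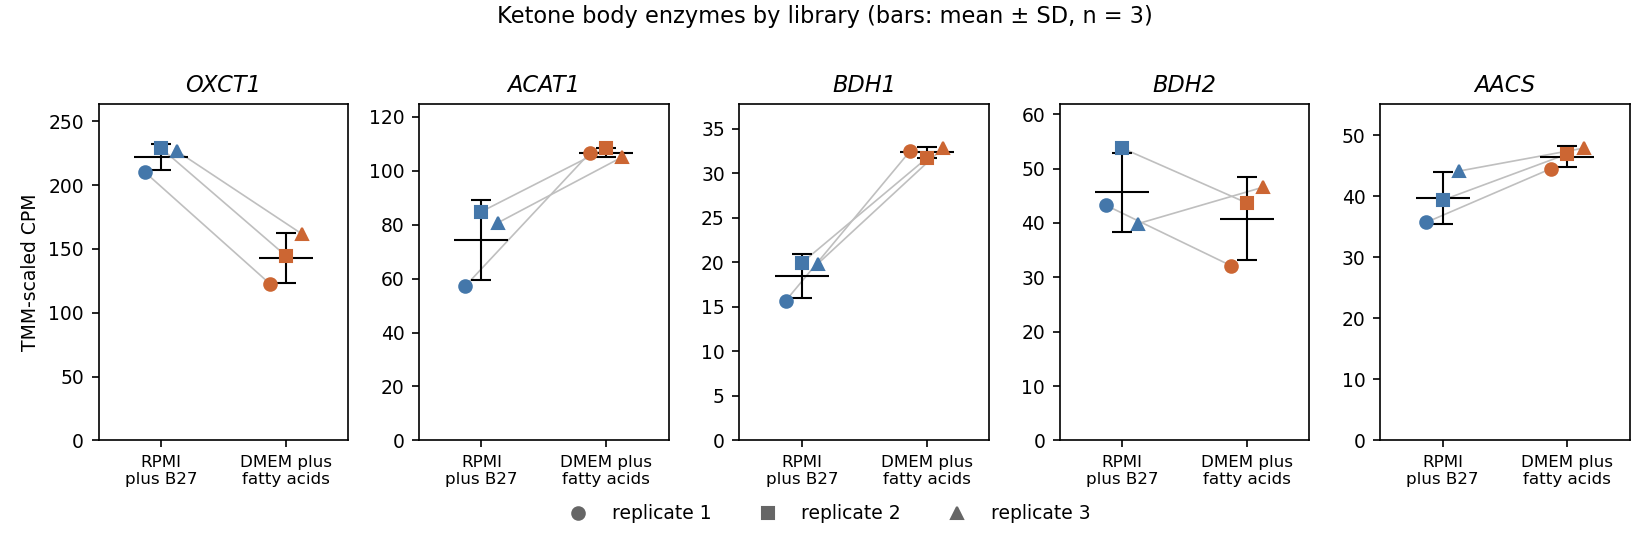
TMM-scaled CPM of the 5 ketone body enzymes (y axes, each from 0) in the 3 libraries of each medium, with the mean and SD as bars and grey lines joining libraries with the same replicate number. BDH1 sits at 15.7 to 20.0 CPM in RPMI plus B27 and 31.7 to 32.8 CPM in DMEM plus fatty acids, while OXCT1 sits at 210.2 to 229.0 and 122.9 to 161.7 CPM.

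BDH1 (ENSG00000161267.11, chromosome 3, 197509783 to 197573323 on GRCh38) encodes the dehydrogenase on the inner mitochondrial membrane that interconverts beta-hydroxybutyrate and acetoacetate. Its level was 15.7, 20.0 and 19.9 CPM in replicates 1, 2 and 3 of RPMI plus B27, and 32.6, 31.7 and 32.8 CPM in DMEM plus fatty acids. Every DMEM library lay above every RPMI library, and the DMEM libraries were the more alike. The means were 18.5 ± 2.45 and 32.4 ± 0.593 CPM (SD, n = 3 each), a log2 fold change of 0.81 ± 0.14 (SE, edgeR adjusted p 0.0495). This adjusted p is close to the threshold. Leaving out any 1 of the 6 libraries ended the call (adjusted p 0.0801 to 0.165), in which the log2 fold change was 0.70 to 0.86.

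OXCT1 (ENSG00000083720.12, chromosome 5, 41730065 to 41870519) encodes the succinyl-CoA transferase that commits acetoacetate to oxidation. It measured 210.2, 229.0 and 226.5 CPM in RPMI plus B27 and 122.9, 144.7 and 161.7 CPM in DMEM plus fatty acids. The groups did not overlap, and the highest DMEM library, replicate 3, was below the lowest RPMI library, replicate 1. The means were 221.9 ± 10.2 and 143.1 ± 19.4 CPM (SD, n = 3 each). The log2 fold change was -0.63 ± 0.13 (SE), with a 95% interval of 0.520 to 0.800 for the ratio of DMEM to RPMI levels. OXCT1 was called by the DESeq2 Wald test too (adjusted p 0.00141), a test that called 7.53% of all genes it adjusted. An antisense gene, OXCT1-AS1, overlaps 229 exonic bases of OXCT1 and had 9 to 16 counts per library against 2854 to 6074 for OXCT1.

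ACAT1 (ENSG00000075239.13, chromosome 11, 108121516 to 108147776) encodes the mitochondrial acetoacetyl-CoA thiolase, which also completes isoleucine breakdown. Its values were 57.2, 84.8 and 80.7 CPM in RPMI plus B27 and 106.6, 108.4 and 105.1 CPM in DMEM plus fatty acids. All 3 DMEM libraries were higher than all 3 RPMI libraries, among which replicate 1 was the lowest. The log2 fold change was 0.52 ± 0.16 (SE, edgeR adjusted p 0.160, and 0.0833 with the replicate block), and 0.37 without RPMI plus B27 replicate 1. Antisense transcripts AP002433.1 and AP002433.2 overlap 6.20% and 3.53% of its exonic bases.

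AACS (ENSG00000081760.16, chromosome 12, 125065379 to 125143333) is the cytosolic enzyme that turns acetoacetate into acetoacetyl-CoA for lipid synthesis. It had 35.7, 39.4 and 44.1 CPM in RPMI plus B27 and 44.5, 46.9 and 47.9 CPM in DMEM plus fatty acids. The groups did not overlap, by a narrow margin, so the DMEM library was necessarily the higher within each pair. The log2 fold change of 0.23 ± 0.12 (SE, edgeR adjusted p 0.392) had a 95% interval from 0.956-fold to 1.43-fold.

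BDH2 (ENSG00000164039.14, chromosome 4, 103079435 to 103099883) is the cytosolic relative of BDH1, known also for making a small iron-binding molecule. It was the member whose media overlapped, with 43.3, 53.8 and 39.9 CPM in RPMI plus B27 and 32.2, 43.7 and 46.6 CPM in DMEM plus fatty acids. Replicate 3 was higher in DMEM plus fatty acids and the other two were lower. The log2 fold change of -0.16 ± 0.18 (SE, edgeR adjusted p 0.695) had a 95% interval from 0.664-fold to 1.21-fold. It was -0.0199 without DMEM plus fatty acids replicate 1, -0.0270 without RPMI plus B27 replicate 2 and -0.0470 with scaling by total counts. BDH2 shares 23.6% of its exonic bases with SLC9B2 on the same strand, so reads there could be left out or assigned to either gene.

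In DMEM plus fatty acids 3 of the 5 members lay higher and 1 lay lower without overlap between media, where 12.8% of tested genes lay higher in that way and 12.8% lower. At an unadjusted p under 0.05 there were 2 members higher (BDH1 and ACAT1) and 1 lower (OXCT1), against 7.70% and 9.98% of all tested genes. Of the mitochondrial route, the dehydrogenase and the thiolase thus had higher means in DMEM plus fatty acids, and the transferase between them a lower one.

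Levels of different genes were set side by side only per kilobase of exonic sequence, using GENCODE 29 transcript models on GRCh38. In RPMI plus B27 the order was OXCT1 at 57.7 ± 2.65, BDH2 at 40.5 ± 6.43, ACAT1 at 28.2 ± 5.66, AACS at 12.0 ± 1.27 and BDH1 at 4.93 ± 0.652 CPM per kilobase (SD, n = 3). OXCT1 thus stood first, and each neighbouring pair was separated by more than the larger of its SDs. The place of BDH2 in either medium is less sure than its SD shows. Reads from the 23.6% of its exonic bases shared with SLC9B2 could be left out or assigned to either gene, and the full length was used. In DMEM plus fatty acids ACAT1 at 40.6 ± 0.617, OXCT1 at 37.2 ± 5.05 and BDH2 at 36.2 ± 6.78 CPM per kilobase did not differ beyond their spread. AACS at 14.0 ± 0.521 and BDH1 at 8.62 ± 0.158 CPM per kilobase kept the last places, and BDH1 was lowest in both media.

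Each mitochondrial enzyme was next compared with a cytosolic counterpart within the same library, a ratio of raw counts that needs no library scaling. OXCT1 had 5.89, 5.82 and 5.13 counts per AACS count in RPMI plus B27, and 2.76, 3.08 and 3.38 in DMEM plus fatty acids. BDH1 had 0.362, 0.371 and 0.498 counts per BDH2 count in RPMI plus B27, and 1.01, 0.726 and 0.705 in DMEM plus fatty acids. The media did not overlap for either ratio, and the 2 ratios went in opposite directions. The log2 OXCT1 to AACS ratio had a mean of 2.49 ± 0.11 in RPMI plus B27 against 1.61 ± 0.15 for the DMEM libraries (SD, n = 3 each), a difference of -0.87 (exact two-sided permutation p = 0.10). The log2 BDH1 to BDH2 ratio was -1.30 ± 0.26 and -0.32 ± 0.29, a difference of 0.98 (exact two-sided permutation p = 0.10). With 3 libraries against 3 this p cannot go below 0.10, and adjusted over the 3 ratios tested it was 0.15 for both. Because the media did not overlap, all 3 same-numbered pairs of libraries had to show each direction. The exact sign-flip p was 0.25, the smallest that 3 pairs can give.

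The third ratio, ACAT1 to the cytosolic thiolase ACAT2, had no common direction. It was 5.18, 6.56 and 5.94 in RPMI plus B27, against 1.62, 6.17 and 12.2 for the other medium, so the DMEM libraries lay on both sides of the RPMI ones. The difference of the log2 ratio was -0.24 (exact two-sided permutation p = 0.90, adjusted 0.90), and it was 0.57 without DMEM plus fatty acids replicate 1. ACAT2, which supplies acetoacetyl-CoA for sterol synthesis, had 11.04, 12.9 and 13.6 CPM in RPMI plus B27 and 65.7, 17.6 and 8.60 CPM in DMEM plus fatty acids. Its exons overlap opposite-strand genes, 12.5% of the bases with TCP1, 34.8% with SOD2 and 45.8% with SOD2-OT1, and whether the counting used strand is not stated.

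**Figure D2:**
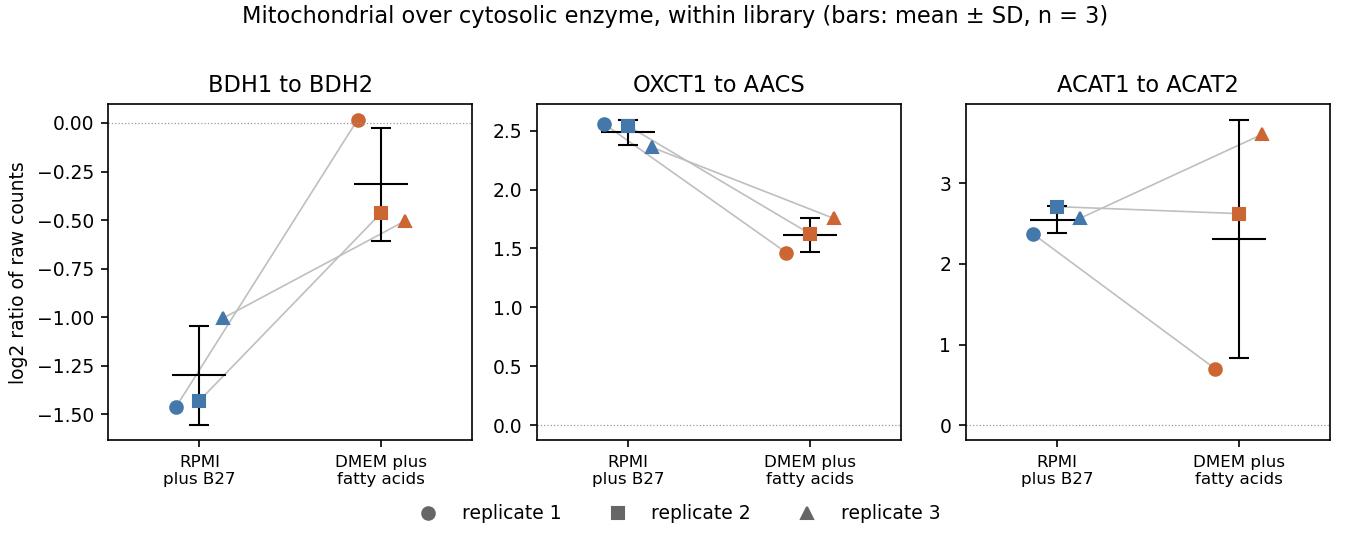
Log2 ratio of raw counts of a mitochondrial enzyme to its cytosolic counterpart in each library (y axes), with mean and SD bars and grey lines joining libraries with the same replicate number. The BDH1 to BDH2 ratio is higher and the OXCT1 to AACS ratio lower in all 3 DMEM plus fatty acids libraries, while ACAT1 to ACAT2 ranges from 0.70 to 3.61 within that medium.

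The genes around these enzymes were read from lists of 45 pathway genes, 40 of which were tested. None was called (0 of 40, edgeR quasi-likelihood test), and 7 higher and 3 lower had an unadjusted p under 0.05 (7.70% and 9.98% of all tested genes). The replicate block called 1 higher and 2 lower (1.36% and 3.42% of all tested genes), and DESeq2 called 6 (7.53%). Among the 40, 8 lay higher and 4 lower without overlap (12.8% of all tested genes in each direction), and their median log2 fold change was 0.34.

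Markers of hepatic and foregut endoderm, a source of ketone-making cells, were also read, and 6 of 10 were tested. Their summed levels were 15.6, 55.3 and 310.1 CPM in RPMI plus B27 and 7.7, 22.3 and 48.8 CPM in DMEM plus fatty acids, lowest in replicate 1 and highest in replicate 3 of both media. All 6 tested markers had lower means in DMEM plus fatty acids (median log2 fold change -1.90, 0 called). The replicate block called 3 of them lower (3.42% of all tested genes), AFP, SERPINA1 and FGB. ALB and SERPINA1 were at 0 in replicate 1 of both media. The part of such cells in the results was not tested. HMGCLL1 had a log2 fold change of -0.41 ± 0.22 (edgeR adjusted p 0.378), and -0.14 without RPMI plus B27 replicate 1.

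Monocarboxylate carriers bring ketone bodies and lactate across the plasma membrane. SLC16A1 (MCT1), the carrier widely used for ketone uptake, had 473.2, 389.6 and 468.3 CPM in RPMI plus B27 and 291.0, 273.8 and 264.6 CPM in DMEM plus fatty acids. Every DMEM library was below every RPMI library (log2 fold change -0.68 ± 0.13, edgeR adjusted p 0.0583, and 0.0384 with the replicate block). SLC16A3 (MCT4), better known as a lactate exporter, had 204.9, 90.7 and 70.5 CPM against 42.8, 25.1 and 13.04 CPM. Its log2 fold change was -2.18 ± 0.53 (edgeR adjusted p 0.0995, and 0.00613 with the block). SLC16A7 (MCT2), which has high affinity for its substrates, overlapped between media (0.41 ± 0.25, edgeR adjusted p 0.446). So did BSG, a chaperone of some monocarboxylate carriers (0.13 ± 0.16, edgeR adjusted p 0.701). The SLC16A7 value was 0.0733 without DMEM plus fatty acids replicate 1, and that of BSG 0.0698 without replicate 2 of that medium. SLC16A6 overlapped as well and had 1 count in RPMI plus B27 replicate 1.

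The listed thiolases other than ACAT1 and ACAT2 all had higher means in DMEM plus fatty acids, 4 of 4, with a median log2 fold change of 0.55. ACAA1, the peroxisomal thiolase, had 47.9, 70.4 and 70.1 CPM against 105.3, 112.2 and 98.2 CPM (0.74 ± 0.17, edgeR adjusted p 0.0837, and 0.0436 with the replicate block). HADHB, the thiolase subunit of the mitochondrial trifunctional protein, had 257.2, 325.0 and 285.1 CPM against 376.5, 427.5 and 446.0 CPM (0.53 ± 0.14, edgeR adjusted p 0.120). In both genes and in SCP2 (3 of 4) the media did not overlap, as in ACAT1. Of all tested genes 12.8% lay higher in that way. SCP2 had 0.33 ± 0.12 (edgeR adjusted p 0.215) and ACAA2 0.58 ± 0.26 (edgeR adjusted p 0.304).

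Branched-chain amino acids can also yield acetoacetate or acetoacetyl-CoA. Among 8 genes of the leucine and isoleucine routes the median log2 fold change was 0.13, with 0 called. BCAT2, the first transaminase, was the gene of this list with a lower mean in DMEM plus fatty acids (-0.41 ± 0.16, edgeR adjusted p 0.261), and ACADSB, an isoleucine dehydrogenase, had 0.74 ± 0.32 (edgeR adjusted p 0.286). They were -0.24 without RPMI plus B27 replicate 3 and 0.45 without RPMI plus B27 replicate 1, respectively. Citrate synthase and the citrate cycle steps that make or use succinyl-CoA were higher on average for 6 of 6 genes (median 0.33, 0 called). The largest was OGDH, a subunit of the complex that makes succinyl-CoA, at 0.57 ± 0.16 (edgeR adjusted p 0.142), followed by DLST of the same complex at 0.35 ± 0.12 and CS, citrate synthase, at 0.34 ± 0.13. Succinyl-CoA ligase subunits, which compete with OXCT1 for succinyl-CoA, ranged from 0.07 (SUCLG1) to 0.31 (SUCLA2).

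Regulators of this pathway showed no call. PPARA, a nuclear receptor of the fasting response in liver, had 0.11 ± 0.26 (edgeR adjusted p 0.866), PPARGC1A 0.38 ± 0.33 (edgeR adjusted p 0.585), and ESRRA 0.18 ± 0.18 (edgeR adjusted p 0.654). With the replicate block PPARGC1A had 0.37 ± 0.0974 (edgeR adjusted p 0.0891), ESRRA 0.18 ± 0.0976 (0.311) and PPARA 0.0847 ± 0.101 (0.642). PPARGC1A had 126.6, 85.0 and 63.7 CPM in RPMI plus B27 and 164.8, 116.6 and 77.5 CPM in DMEM plus fatty acids. For PPARGC1A and ESRRA each DMEM library was higher than the RPMI library of the same number. Leaving out DMEM plus fatty acids replicate 1, which breaks a pair, gave 0.0801 for PPARGC1A and 0.0368 for ESRRA without the block. FGF21, a fasting hormone, had 3, 2 and 0 counts in DMEM plus fatty acids and 0 in all 3 RPMI libraries. The beta-hydroxybutyrate receptor HCAR2 had 1 count in all 6 libraries together, and the testis-type transferase OXCT2 had 0 to 4 counts per library.

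Sterol genes share SREBP control with AACS in other tissues and were higher on average for 10 of 10 genes (median 0.96, 0 called). In 9 of these genes DMEM plus fatty acids replicate 1 was the highest library. HMGCS1, the cytosolic HMG-CoA synthase, had 199.7, 196.8 and 158.8 CPM in RPMI plus B27 and 1154.3, 340.4 and 109.9 CPM in DMEM plus fatty acids. In DMEM plus fatty acids it was highest in replicate 1 and lowest in replicate 3, where it lay below all RPMI libraries. Without DMEM plus fatty acids replicate 1 its log2 fold change went from 1.53 to 0.29, and those of FDFT1, SQLE and INSIG1 turned negative (-0.22 to -0.0659). AACS did not follow that order and was lowest in replicate 1 of both media. MVK, mevalonate kinase, was the sterol gene whose media did not overlap, with 20.2, 37.1 and 44.3 CPM against 68.6, 74.2 and 64.3 CPM (1.03 ± 0.27, edgeR adjusted p 0.116).

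**Figure D3:**
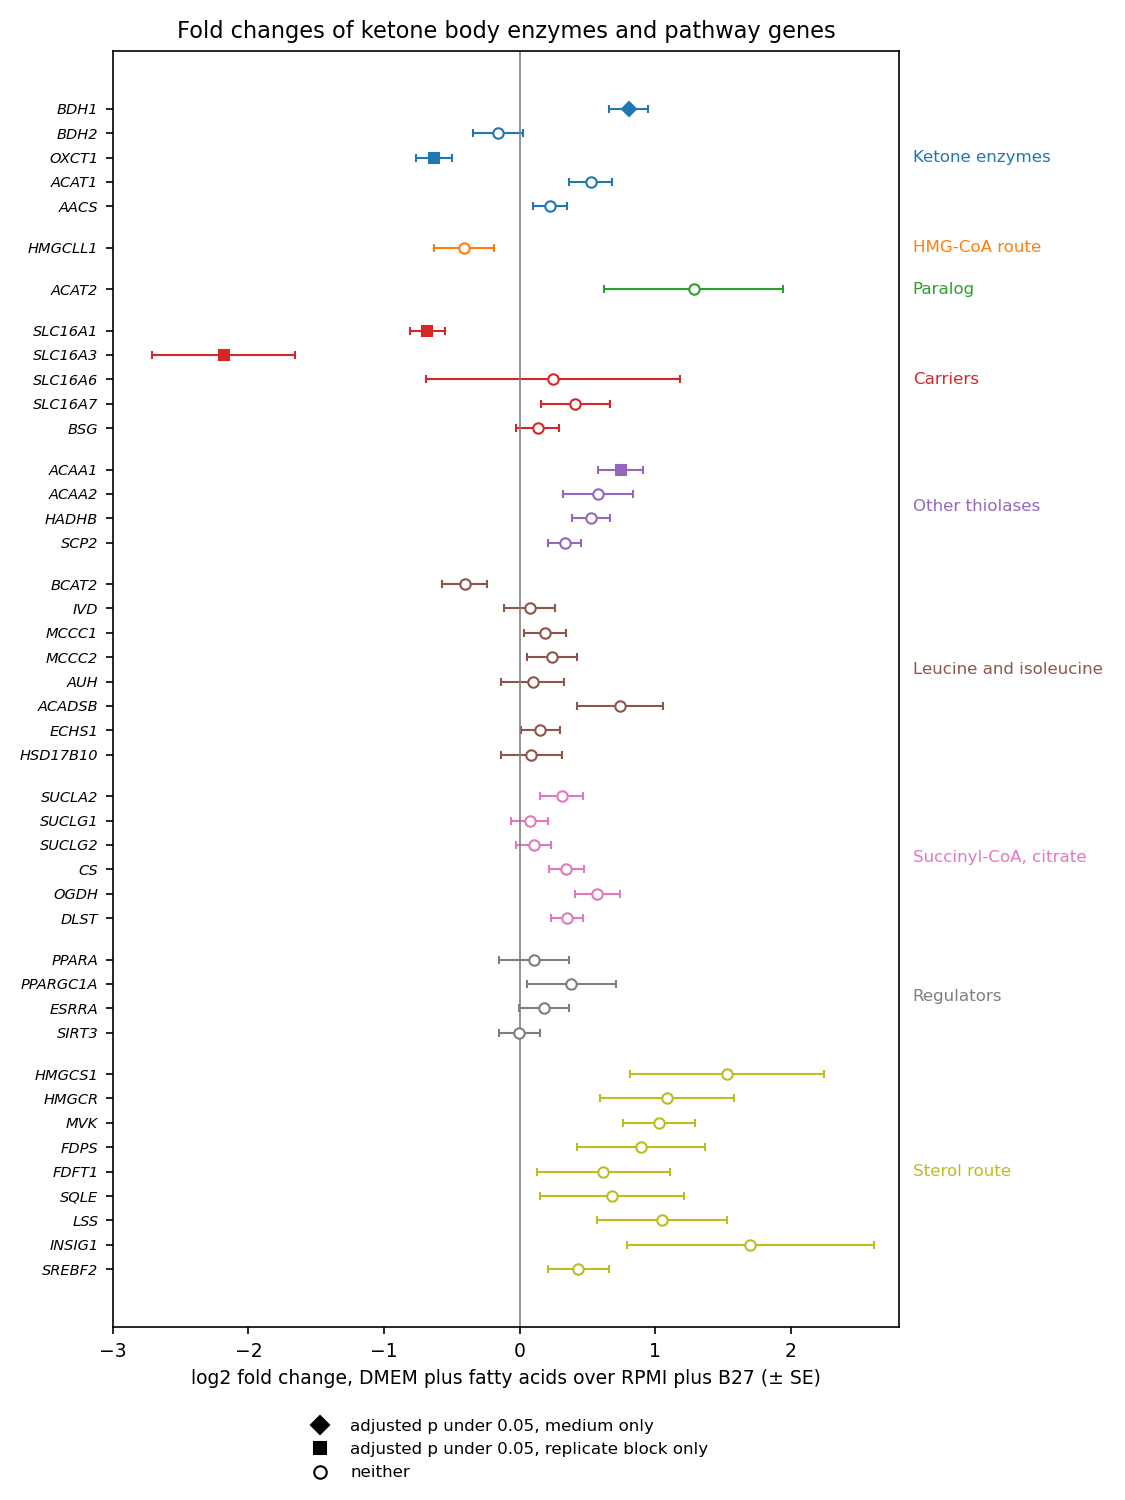
Log2 fold change, positive where DMEM plus fatty acids was higher (x axis, points with SE) for the 5 ketone body enzymes and 38 tested pathway genes, grouped by list. Filled diamonds passed an adjusted p of 0.05 without the replicate block (BDH1), filled squares with it alone (OXCT1, SLC16A1, SLC16A3 and ACAA1).

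By the root-mean-square difference between log2 CPM profiles centred over the 6 libraries, the genes most like each member were sought among 10027 others with a mean of at least 10 CPM. Nearest to BDH1 were STIM2 (0.0750), ZNF43 (0.0766) and RNF187 (0.0798), and nearest to OXCT1 were CHPF (0.0614), GSTP1 (0.0834) and HPRT1 (0.0884). CHPF, a chondroitin synthesis factor, had 350.0, 347.2 and 355.4 CPM in RPMI plus B27 and 199.1, 243.0 and 243.4 CPM in DMEM plus fatty acids, with the media apart as for OXCT1. Nearest to ACAT1 were SLC25A51 (0.0475), a mitochondrial NAD carrier, RABEP2 (0.0487) and ACADM (0.0501). ACADM, the medium-chain acyl-CoA dehydrogenase of fatty acid oxidation, had 75.9, 118.9 and 110.1 CPM against 144.6, 136.3 and 137.2 CPM, with RPMI plus B27 replicate 1 lowest as in ACAT1. AACS lay nearest to URI1 (0.0246), MMACHC (0.0250) and THUMPD1 (0.0264), and BDH2 to DYNC2LI1 (0.0474), CCDC28B (0.0534) and WASHC3 (0.0665). These distances describe 6 libraries that share their medium and replicate structure. The genes were picked for likeness over these libraries, so a shared order or separation of libraries follows from the choice.

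**Figure D4:**
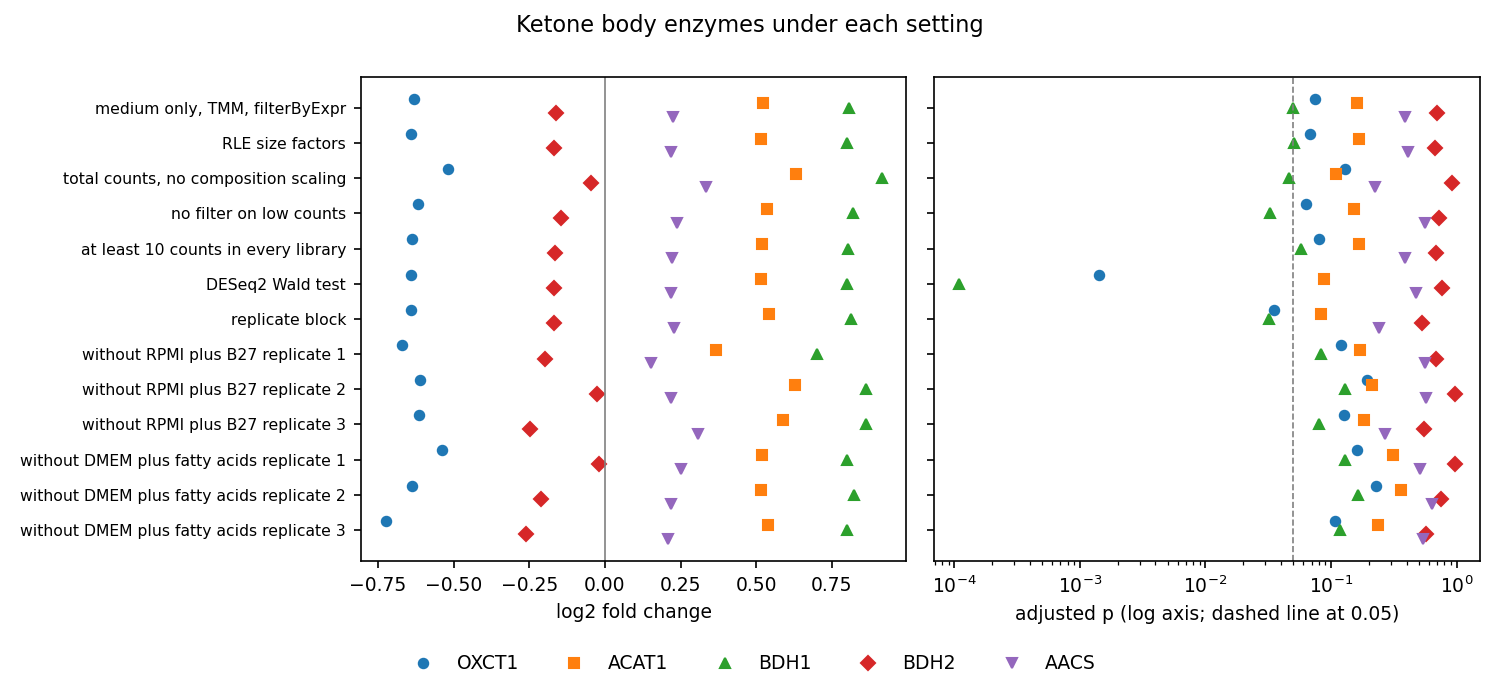
Log2 fold change (left x axis) and adjusted p (right x axis, log scale, dashed line at 0.05) of the 5 ketone body enzymes in the reported fit and 12 alternatives, 1 per line. Each gene keeps its sign on the left in all 12 alternatives, while BDH1 lies on both sides of the dashed line on the right, from 0.000109 to 0.165.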

How the data were processed

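RNA from 3 biological replicates per medium was sequenced as stranded mRNA libraries, per the labels' protocols. The deposited files hold unnormalised counts for each gene symbol and library. STAR, HTSeq and hg38 are named in the submitters' processing notes, and versions, annotation and strand setting are not given in the sources used here. Summary rows that name no gene were left out, and gene rows held 84.4% to 87.2% of each file. The test was that of edgeR 4.0.16, run under R 4.3.3 (filterByExpr, minimum count 10 and total 15, TMM scaling, quasi-likelihood test of medium over all 6 libraries, Benjamini-Hochberg over 16107 genes, threshold 0.05), a script tested on simulated data. CPM values are TMM-scaled. SEs are implied by the F statistic. DESeq2 1.42.0 was an alternative. Ratios used raw counts plus 0.5. Libraries with the same replicate number deviated together from their medium's mean (r = 0.313, 0.428 and 0.365 across genes, other numbers -0.24 to -0.14), so the numbers were taken as pairing them. Centring on each medium's mean ties these values together, so the negative ones add no separate evidence. No libraries agreed within sampling noise (smallest chi-square per degree of freedom 31.5). Members and lists were chosen with earlier results of these data known. The rule for names took the members, all list genes and the 3 most similar genes per member. Among marker lists, 3 of 3 tested epicardial genes (TBX18, KRT8 and KRT18) had lower means (1 called, 3 with the replicate block). WT1, UPK3B and MSLN of that list had too few counts to test. Of 3 tested endothelial genes (KDR, TIE1 and EMCN) 2 had lower means (0 called, and with the block KDR was called higher and EMCN lower). PECAM1, CDH5 and VWF had too few counts to test. Among smooth muscle genes 1 was called lower (2 with the block). Over all tested genes 1.07% were called lower, and with the block 3.42% lower and 1.36% higher. Some genes counted in the pathway lists are not reported here by name.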

Additional observations from a re-analysis of the deposited data

How the results depend on the processing

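All 5 members kept their direction in each of 12 alternatives, BDH2 close to 0 in some (-0.26 to -0.0199). Counts of genes past the threshold moved with the setting. Over all genes 219 were called, and 539 without a filter, 119 with at least 10 counts in every library, 1212 by DESeq2, 770 with the replicate block and 3 to 131 with 1 library left out. Scaling by total counts moved the share of lower calls from 78.5% to 63.4% and the median of all genes to 0.12. Relative to that median, BDH1 had 0.80, OXCT1 -0.64 and ACAT1 0.51.

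The number of members called was 1, and 0 with RLE factors or at least 10 counts in every library, 2 by DESeq2 or with the replicate block, and 0 to 0 with 1 library left out. BDH1 was not called with RLE factors (log2 fold change 0.80, adjusted p 0.0511) or at least 10 counts in every library (0.80, 0.0572), nor without 1 library (0.70 to 0.86). OXCT1 was called by DESeq2 (-0.64) and with the block (-0.64), and ranged from -0.73 to -0.54 with 1 library left out. Pathway genes called were 0, but 3 without a filter, 6 by DESeq2 and 3 with the block. With the block OXCT1, SLC16A1, SLC16A3 and ACAA1 gained a call, and no other member or pathway gene changed its call.

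Signs turned when 1 library was left out for SLC16A6 (-0.32 to 1.29), IVD (-0.0789 to 0.23), AUH (-0.0917 to 0.36), HSD17B10 (-0.12 to 0.32) and PPARA (-0.20 to 0.32). Without DMEM plus fatty acids replicate 1 they turned for FDFT1 (-0.22, range to 0.98), SQLE (-0.19, to 1.09), INSIG1 (-0.0659, to 2.22) and the ACAT1 to ACAT2 ratio (-0.89 to 0.57). SIRT3, at -0.0017, turned to 0.11 by total counts, 0.013 without a filter and 0.0077 with the replicate block, and ran from -0.12 to 0.0640 with 1 library left out. The cause was not tested.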
